A study of Mus musculus with 6 samples.

Results

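The 10 genes described here belong to the Nrf2 pathway and the antioxidant and ferroptosis defence. They were chosen by gene name as *Nfe2l2*, *Keap1*, *Hmox1*, *Nqo1*, *Gclc*, *Gclm*, *Txnrd1*, *Srxn1*, *Slc7a11* and *Gpx4*, and all 10 were found once among the 55416 genes of the expression table. RNA was sequenced from muscle satellite cells (SCs), the stem cells of skeletal muscle, with 3 libraries from WT mice and 3 libraries from *Ltf*-KO mice. *Ltf* encodes lactoferrin, a secreted iron-binding glycoprotein, and the knockout removed several of its exons in the whole body by CRISPR-Cas9 editing of C57/BL6N zygotes. SCs were sorted by flow cytometry from hind leg muscle of adult mice, and the paper names the gate as Sca1-, CD11b-, CD34+ and α7-integrin+. The antibodies it lists for this stain were against CD31, CD45, Sca1 and α7-integrin, with none against CD11b or CD34. Sorted cells were grown on Matrigel for 4 days with serum, chick embryo extract and basic fibroblast growth factor, with no treatment in either group. How many mice stand behind each library was not given, so p-values here measure the spread between these libraries, which may be technical in part.

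Nrf2, the protein of *Nfe2l2*, is a transcription factor that Keap1 holds in the cytoplasm and hands to a Cullin 3 ubiquitin ligase for destruction. Oxidants and electrophiles modify cysteines of Keap1, Nrf2 then escapes degradation, enters the nucleus, pairs with small Maf proteins and binds antioxidant response elements near genes for heme breakdown, quinone reduction, glutathione synthesis and thioredoxin recycling. In muscle stem cells this program belongs to the defence against the oxidants that arise when cells leave quiescence and divide, and iron released from heme or ferritin feeds the lipid peroxidation that Gpx4 holds back.

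Levels are given in TPM, a unit of transcript abundance that corrects for transcript length and scales each library to one total, so levels can be set side by side between genes. The deposited totals ran from 993650 to 994356 TPM, and sequencing depth cannot be read from this unit. The order of values below is replicate 1, 2 and 3 of each genotype. *Ltf* (ENSMUSG00000032496) had values of 0.12, 0.02 and 0.02 TPM in WT and of 0.02, 0.03 and 0 TPM in *Ltf*-KO. It was near the floor in both groups, so its level does not tell the genotypes apart.

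The comparison asks whether SCs without *Ltf* differed from WT SCs in the level of Nrf2, of its inhibitor and of the enzymes of the antioxidant response. None of the 10 members differed between genotypes by more than the spread between libraries in the limma test. The largest differences in mean level were those of *Slc7a11*, at 1.1 times the WT mean in *Ltf*-KO, and *Hmox1*, at 1.05 times. For several members single libraries lay further apart than the genotype means: *Hmox1* spanned a 2.12-fold range over the 6 libraries, *Slc7a11* 1.85-fold, *Gclm* 1.61-fold and *Srxn1* 1.51-fold, while *Nfe2l2* itself spanned 1.1-fold. In a bulk culture, fewer cells of a type and less RNA per cell cannot be told apart.

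All 10 members passed the filter of a mean of at least 1 TPM, as did 12956 genes in all, and *Ltf*-KO was compared with WT over these genes with limma on log2(TPM + 1). The pseudocount of 1 makes changes at low levels look smaller, which here touches *Slc7a11* most. At an adjusted p under 0.05, 0 of 10 members and 0 of the 12956 genes (0%) were called by limma, and at an unadjusted p under 0.05 it called 0 of 10 members and 490 genes (3.78%). Of these 490, 230 were lower in *Ltf*-KO (1.78%) and 260 were higher (2.01%), a share of 46.9% lower that became 60.0% with quantile normalization. The number of genes past the adjusted threshold was 6 without WT replicate 2, 1 without WT replicate 3, 5 without *Ltf*-KO replicate 1, 2 without *Ltf*-KO replicate 2 and 4 without *Ltf*-KO replicate 3, and no member was among them. The genotypes did not overlap in 0 of 10 members and in 1096 of all genes tested (8.46%). The log2 fold change, *Ltf*-KO minus WT, was below 0 in 3 members and above 0 in 7, *Nqo1* passing to the other side with quantile normalization (-0.0027), and the median was 0.020. Over all genes tested, 5736 lay below 0 and 7220 above, with a median of 0.011. That median became 0.0013 with median-of-ratios scaling and -0.0020 with quantile normalization. The adjusted p from limma was 0.999 for each of the 10 members.

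**Figure D1:**
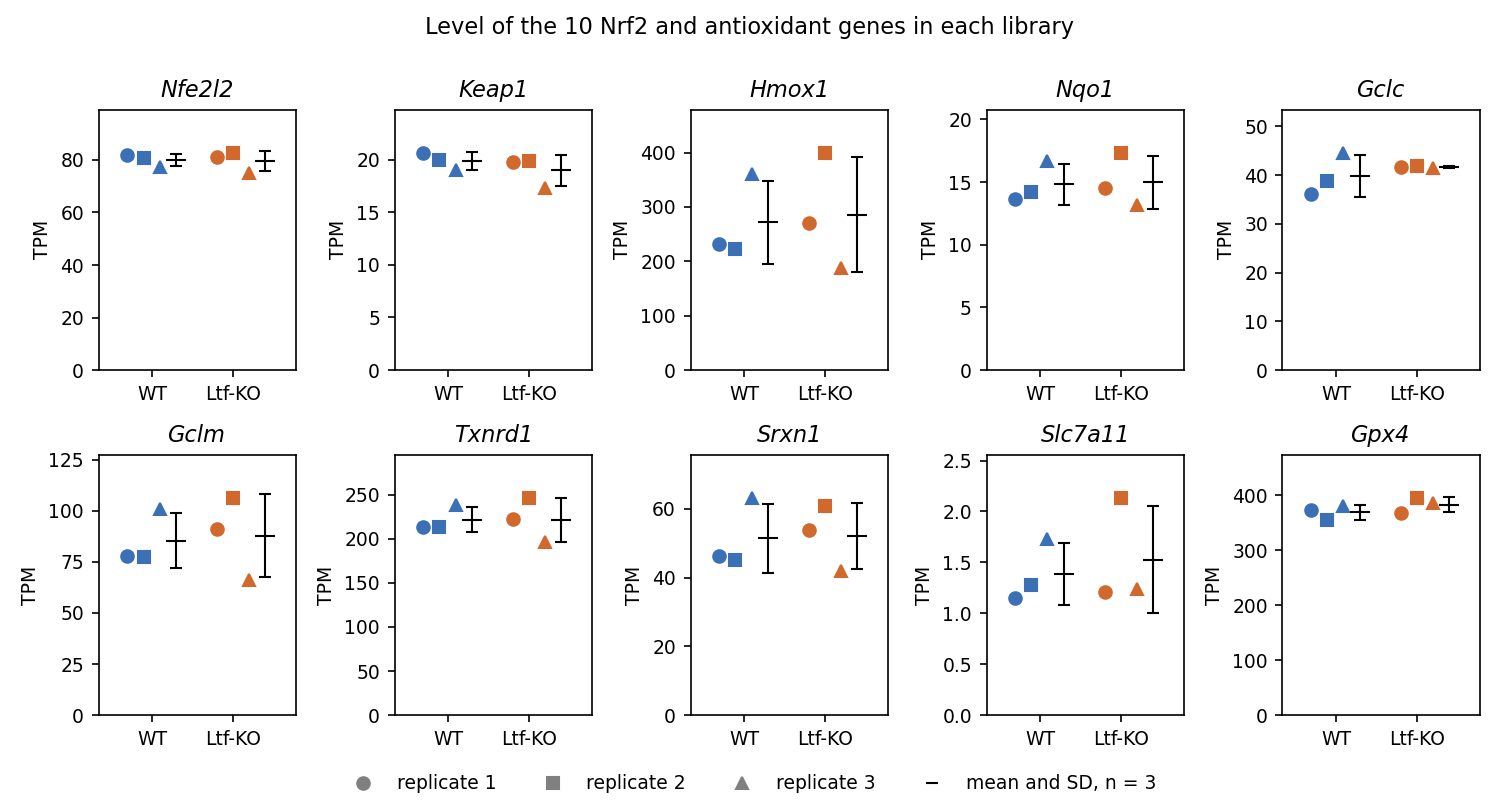
Level in TPM (y axis, from 0) of each of the 10 genes in the 3 WT (blue) and 3 *Ltf*-KO (orange) libraries, with circles, squares and triangles for replicates 1, 2 and 3 and the mean and SD of each genotype in black. The genotypes overlap in every panel, and *Hmox1* runs from 188 to 399 TPM within *Ltf*-KO alone.

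By mean level over the 6 libraries, *Gpx4* stood highest at 375.7 TPM, followed by *Hmox1* at 278.8 TPM and *Txnrd1* at 221.6 TPM. The ranges of *Gpx4* and *Hmox1* overlapped, as did those of *Hmox1* and *Txnrd1*, and each pair kept its order in 5 of 6 libraries. Below them stood *Gclm* at 86.6 TPM and *Nfe2l2* at 79.8 TPM, whose ranges also overlapped, with *Gclm* the higher in 3 of 6 libraries. *Srxn1* at 51.9 TPM and *Gclc* at 40.8 TPM overlapped in range but kept their order in 6 of 6 libraries, and so did *Keap1* at 19.4 TPM and *Nqo1* at 14.9 TPM. *Slc7a11* was the lowest at 1.46 TPM. The ranges did not meet between *Txnrd1* and *Gclm*, between *Nfe2l2* and *Srxn1*, between *Gclc* and *Keap1*, or between *Nqo1* and *Slc7a11*.

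The start sites of the members were searched for TGACNNNGC, the core of the antioxidant response element, on both strands (GCNNNGTCA on the other strand), in RefSeq windows on GRCm38.p6 that run from 250 bases before to 50 bases after a start. The first 4 letters of the core are shared with the AP-1 site TGACTCA. Of the 10 members, 8 had a window, and *Hmox1* and *Gclc* are named only. The core was found in 4 of these 8 genes, in 14% of the 27025 genes with a window, in 12.4% of all 32851 windows, and in 19 of the 108 other pathway genes with a window (17.6%). The 4 matches are shown so that the members that hold the core can be compared letter by letter, each with 10 bases on either side, 5′ to 3′ on the strand of the gene, with the core in capitals:
Nfe2l2: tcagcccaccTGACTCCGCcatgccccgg
Gclm: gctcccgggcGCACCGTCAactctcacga
Txnrd1: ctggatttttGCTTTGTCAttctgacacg
Srxn1: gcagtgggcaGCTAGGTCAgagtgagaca
In *Nfe2l2* the core began 240 bases before the start on the strand of the gene, in chr2:75704885-75704913 on the minus strand. The end of this window was not found in the GENCODE transcripts of *Nfe2l2*, so the distance rests on the RefSeq start alone. In *Gclm* the core lay on the strand opposite to the gene and began 134 bases before the start, in chr3:122245413-122245441. In *Txnrd1*, where 1 of 3 windows held it, the core was also on the opposite strand and began 92 bases before the start, in chr10:82859104-82859132. In *Srxn1* it began at base 29 after the start, within the transcribed part, again on the opposite strand, in chr2:152105542-152105570. None of the 4 holds the AP-1 site. No window of *Keap1*, *Nqo1*, *Slc7a11* or *Gpx4* held these letters, which says nothing of elements elsewhere, and a match is a description and not a binding site.

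*Nfe2l2* (ENSMUSG00000015839), which encodes Nrf2, was at 81.8, 80.8 and 77.5 TPM in WT and at 81.0, 82.6 and 75.1 TPM in *Ltf*-KO. The highest and the lowest value were both *Ltf*-KO libraries, replicates 2 and 3, and the genotypes overlapped throughout. The means were 80.0 ± 2.28 TPM in WT and 79.6 ± 3.95 TPM in *Ltf*-KO (SD, n = 3 each), a log2 fold change of -0.0084 in limma with a 95% confidence interval from -0.13 to 0.11, or from 0.916-fold to 1.08-fold.

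*Keap1* (ENSMUSG00000003308), the sensor that holds Nrf2 back, was at 20.6, 20.0 and 19.0 TPM in WT and at 19.8, 19.9 and 17.3 TPM in *Ltf*-KO. The lowest value was *Ltf*-KO replicate 3, and the other *Ltf*-KO libraries fell within the WT range. Its log2 fold change was -0.063 (95% confidence interval -0.23 to 0.11), and without *Ltf*-KO replicate 3 it came to -0.00051. The ratio of *Nfe2l2* to *Keap1* transcripts was 4.03 ± 0.0585 in WT and 4.20 ± 0.130 in *Ltf*-KO (SD, n = 3 each). It was lowest in WT replicate 1 at 3.96 and highest in *Ltf*-KO replicate 3 at 4.34, and the 3 *Ltf*-KO values lay above the 3 WT values, the nearest pair being 4.08 and 4.10. Of the 7 ratios between transcripts that were formed, that of *Ftl1* to *Fth1* also did not overlap, at 2.32 to 2.43 in WT and lower in *Ltf*-KO at 2.22 to 2.29, and the other 5 overlapped. The ratios were not tested, and the share of non-overlapping ratios over other gene pairs was not determined. Among single genes tested, 8.46% did not overlap between genotypes.

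*Hmox1* (ENSMUSG00000005413) encodes the inducible heme oxygenase, which opens heme and frees its iron. It was at 232.1, 223.5 and 360.1 TPM in WT and at 270.4, 399.0 and 188.0 TPM in *Ltf*-KO. *Ltf*-KO replicate 2 was the highest and WT replicate 3 came next, *Ltf*-KO replicate 3 was the lowest, and the WT values fell inside the *Ltf*-KO range. The mean was 271.9 ± 76.5 TPM in WT and 285.8 ± 106.4 TPM in *Ltf*-KO (SD, n = 3 each), a log2 fold change of 0.040. Its confidence interval was the widest of the members, from -0.68 to 0.76, or from 0.623-fold to 1.69-fold. A difference of any size within that range is compatible with these libraries. The coefficient of variation was 28.1% in WT and 37.2% in *Ltf*-KO, against medians of 3.51% and 3.67% among the 1241 genes with a mean of 100 to 1000 TPM. Of those genes, 13 (1.05%), *Hmox1* among them, had a ratio of highest to lowest library as large as 2.12. The constitutive heme oxygenase *Hmox2* stayed from 29.97 to 33.6 TPM in the 6 libraries, so that *Hmox1* was 7.38, 7.28 and 12.0 times *Hmox2* in WT and 8.43, 12.7 and 5.59 times in *Ltf*-KO.

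*Nqo1* (ENSMUSG00000003849), which reduces quinones with electrons from NADH or NADPH, was at 13.6, 14.2 and 16.7 TPM in WT and at 14.5, 17.3 and 13.2 TPM in *Ltf*-KO. Again *Ltf*-KO replicate 2 was the highest, WT replicate 3 followed and *Ltf*-KO replicate 3 was the lowest. Between genotypes the log2 fold change was 0.012 (95% confidence interval -0.27 to 0.29).

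The rate-limiting enzyme of glutathione synthesis, glutamate-cysteine ligase, has a catalytic subunit encoded by *Gclc* and a modifier subunit encoded by *Gclm*. *Gclm* (ENSMUSG00000028124) was at 77.9, 77.6 and 100.9 TPM in WT and at 91.0, 106.2 and 65.9 TPM in *Ltf*-KO. *Gclc* (ENSMUSG00000032350) was at 36.1, 38.7 and 44.5 TPM in WT and at 41.7, 41.9 and 41.5 TPM in *Ltf*-KO. *Gclm* had the order of libraries seen in *Hmox1* at both ends, with *Ltf*-KO replicates 2 and 3 as the highest and the lowest. In *Gclc* both ends were WT libraries, and the 3 *Ltf*-KO libraries were almost alike, with an SD of 0.187 TPM against 4.31 TPM in WT. The log2 fold change was 0.021 for *Gclm* (95% confidence interval -0.43 to 0.47) and 0.071 for *Gclc* (-0.11 to 0.26). Without WT replicate 3, the highest library of *Gclc*, its log2 fold change rose to 0.15, against 0.0055 without WT replicate 1, and it passed an unadjusted p under 0.05 in limma (adjusted p = 1), which no other member did under any alternative. *Gclm* transcripts were 2.16, 2.0 and 2.27 times those of *Gclc* in WT and 2.18, 2.54 and 1.59 times in *Ltf*-KO, the highest and the lowest ratio both being found within *Ltf*-KO.

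In the thioredoxin branch, *Txnrd1* encodes the cytosolic thioredoxin reductase and *Srxn1* encodes sulfiredoxin, which repairs overoxidized peroxiredoxins. *Txnrd1* (ENSMUSG00000020250) was at 213.8, 212.8 and 238.1 TPM in WT and at 222.9, 246.0 and 195.8 TPM in *Ltf*-KO. *Srxn1* (ENSMUSG00000032802) was at 46.3, 45.1 and 63.1 TPM in WT and at 53.8, 61.0 and 41.8 TPM in *Ltf*-KO. *Ltf*-KO replicate 3 was the lowest library for both genes, and the highest was *Ltf*-KO replicate 2 for *Txnrd1* and WT replicate 3 for *Srxn1*. The mean of *Txnrd1* was 221.6 TPM in both genotypes, with an SD of 14.3 TPM in WT and 25.1 TPM in *Ltf*-KO, and its log2 fold change was -0.0042 (95% confidence interval -0.22 to 0.21). For *Srxn1* the log2 fold change was 0.019 (-0.40 to 0.44).

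*Slc7a11* (ENSMUSG00000027737), the light chain of the exchanger that brings cystine into the cell for glutathione synthesis, was at 1.15, 1.28 and 1.73 TPM in WT and at 1.21, 2.13 and 1.24 TPM in *Ltf*-KO. *Ltf*-KO replicate 2 stood above all others, WT replicate 3 came next, and the remaining 4 libraries lay close together across genotypes. Its log2 fold change was 0.070 (95% confidence interval -0.40 to 0.55). The heavy chain *Slc3a2*, which also serves other amino acid transporters, stayed between 163.6 and 175.7 TPM, from 80.6 to 142.3 times the level of *Slc7a11*.

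*Gpx4* (ENSMUSG00000075706), the selenoprotein that reduces lipid hydroperoxides and blocks ferroptosis, was at 372.5, 354.1 and 380.7 TPM in WT and at 367.1, 394.3 and 385.8 TPM in *Ltf*-KO. The values lay close together, with WT replicate 2 lowest and *Ltf*-KO replicate 2 highest. The means were 369.1 ± 13.6 TPM in WT and 382.4 ± 13.9 TPM in *Ltf*-KO (SD, n = 3 each). The log2 fold change of 0.051 had the narrowest confidence interval of the members, from -0.050 to 0.15. *Gpx4* stood at 1.39 to 1.64 times *Gpx1*, the cytosolic glutathione peroxidase.

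**Figure D2:**
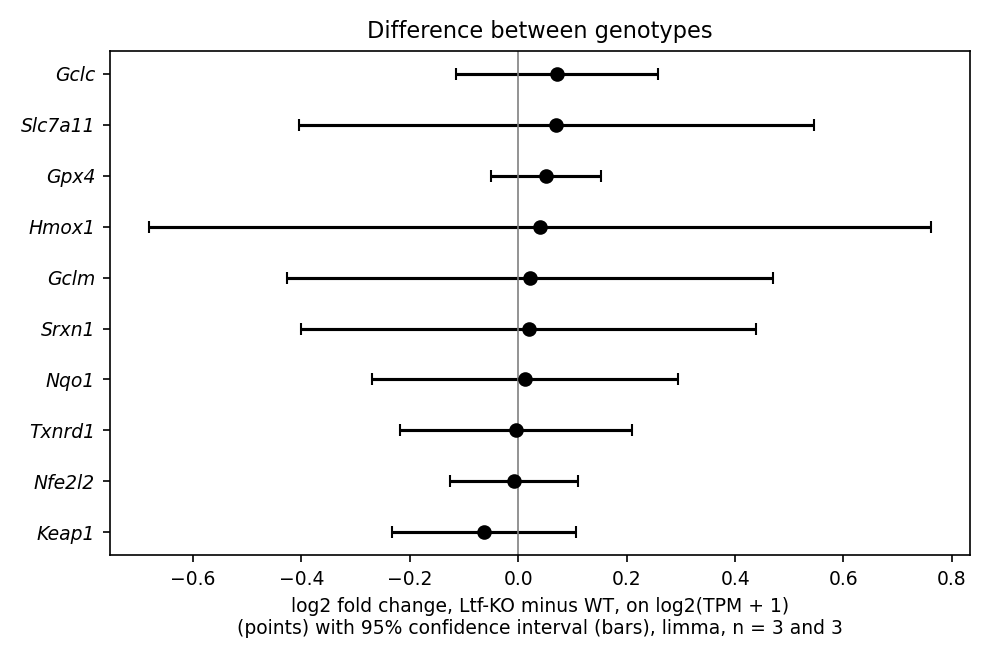
Log2 fold change of each member on log2(TPM + 1), *Ltf*-KO minus WT (x axis), as points with the 95% confidence interval from limma as bars, 3 libraries per genotype. Every interval crosses 0, from the narrowest for *Gpx4* (-0.050 to 0.15) to the widest for *Hmox1* (-0.68 to 0.76).

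The sign of the difference rested on single libraries in 7 of the 10 members. *Hmox1* turned to -0.057 and -0.084 when WT replicates 1 and 2 were left out in turn and to -0.23 without *Ltf*-KO replicate 2, and was 0.31 without *Ltf*-KO replicate 3. *Nqo1* turned to -0.042, -0.016 and -0.089 without the same 3 libraries. *Gclm* and *Srxn1* turned negative without any of these 3, at -0.039, -0.042 and -0.13 for *Gclm* and -0.048, -0.067 and -0.099 for *Srxn1*, and also without *Ltf*-KO replicate 1, at -0.018 and -0.011. In these 4 genes the sign depended on which libraries entered. *Slc7a11* turned to -0.0011 without WT replicate 1, and to -0.094 when *Ltf*-KO replicate 2 was left out. *Nfe2l2* turned to 0.0077 without WT replicate 1, and to 0.032 when *Ltf*-KO replicate 3 was left out, and *Txnrd1* to 0.048 without WT replicate 3, and to 0.081 when *Ltf*-KO replicate 3 was left out. *Keap1*, *Gclc* and *Gpx4* kept their sign with each library left out, but *Gclc* fell to 0.0055 without WT replicate 1 and *Gpx4* to 0.021 without WT replicate 2.

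The members were next compared by the order of their libraries. The libraries counted here were chosen after the values were seen. *Ltf*-KO replicate 2 was the highest library in 7 of 10 members and in 21.3% of all genes tested, *Ltf*-KO replicate 3 was the lowest in 7 of 10 members and in 18.7% of all genes, and both held in 5 of 10 members, *Nfe2l2*, *Hmox1*, *Nqo1*, *Gclm* and *Txnrd1*, and in 6.16% of all genes. Expressed as a percentage of its own mean over the 6 libraries, *Hmox1* stood at 143.1% in *Ltf*-KO replicate 2, 129.1% in WT replicate 3 and 67.4% in *Ltf*-KO replicate 3. *Gclm* stood at 122.6%, 116.5% and 76.2% in the same libraries, *Srxn1* at 117.6%, 121.7% and 80.6%, and *Nqo1* at 116.1%, 111.9% and 88.2%. *Txnrd1* showed the same order over a narrower span, at 111.0%, 107.4% and 88.4%. *Slc7a11* shared the high libraries, at 146.2% and 118.8%, but WT replicate 1 was its lowest at 79.0%. *Nfe2l2* differed from these genes in WT replicate 3, where it stood at 97.1% of its mean, and *Keap1* likewise at 97.7%.

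**Figure D3:**
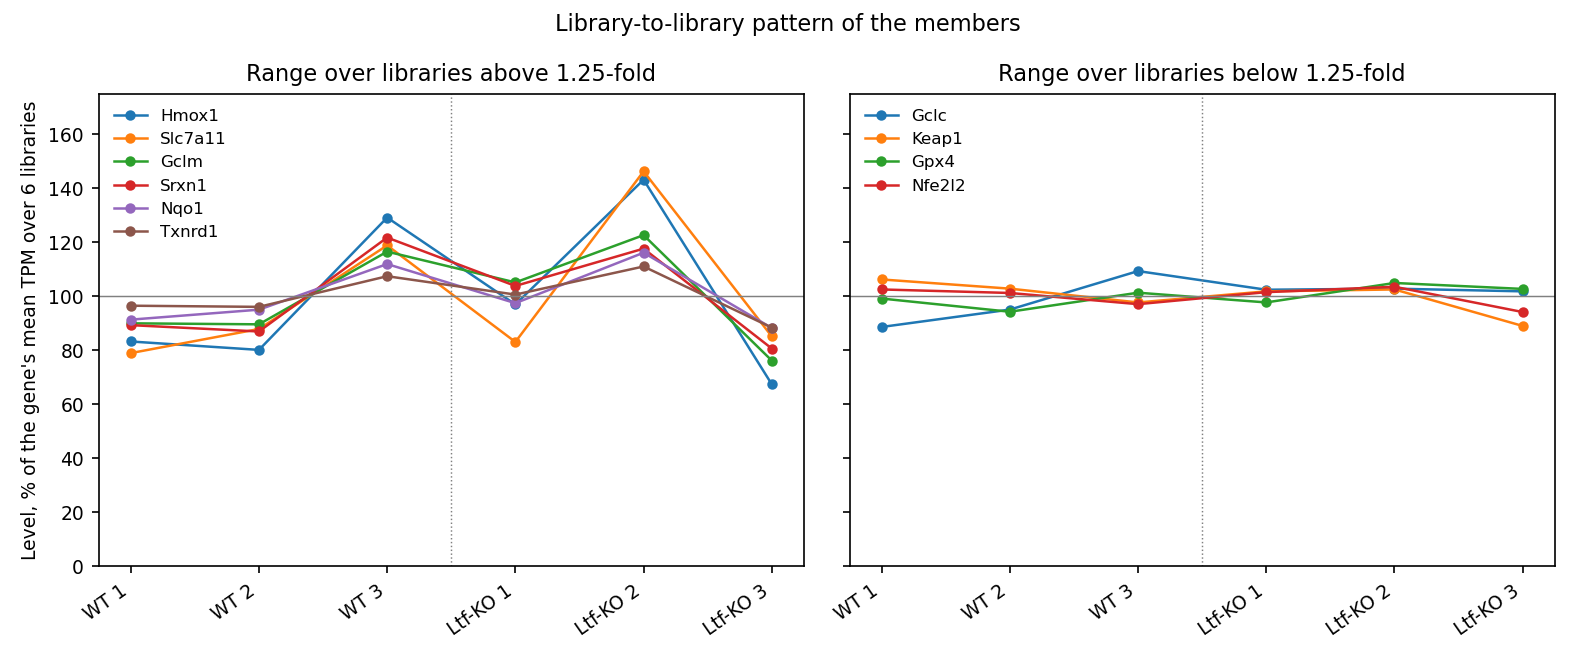
Level of each member in each library as a percentage of the gene's mean TPM over the 6 libraries (y axis), for the 6 members with the wider range (left) and the 4 with the narrower range (right), with a dotted line between WT and *Ltf*-KO libraries. The wider members peak at WT replicate 3 and *Ltf*-KO replicate 2, with *Hmox1* at 129.1% and 143.1%, while *Nfe2l2* stays between 94.1% and 103.5%.

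The range over libraries was set against genes of like level. Among the 6681 genes with a mean of 10 to 100 TPM, the median ratio of highest to lowest library was 1.18, and 376 genes (5.63%) had a ratio as large as that of *Gclm* and 531 (7.95%) one as large as that of *Srxn1*. For *Nqo1*, with a ratio of 1.32, the share was 20.2%, for *Gclc* 34.6%, for *Keap1* 46.0% and for *Nfe2l2* 84.7%. Among genes of 100 to 1000 TPM, 11.7% had a ratio as large as the 1.26 of *Txnrd1* and 47.1% one as large as the 1.11 of *Gpx4*. *Slc7a11* varied by 1.85-fold, but so did 32.2% of the 4884 genes of 1 to 10 TPM, where the median ratio was 1.5.

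Likeness of profile was measured as the root mean square distance between log2(TPM + 1) values centred on their mean over the 6 libraries, over the 8071 other tested genes that averaged 10 TPM or more. For *Hmox1*, the member that varied most, the nearest profiles were those of *Thbd* (distance 0.126), *Endod1* (0.129) and *Fxyd5* (0.144), against 0.385 for the median gene. *Thbd*, which encodes thrombomodulin, was at 7.95, 8.06 and 12.3 TPM in WT and at 10.8, 15.3 and 8.11 TPM in *Ltf*-KO, with the same pair of libraries at the top. For *Nfe2l2* the nearest were *Trappc11* (0.0112), *Sfxn3* (0.0123) and *Ski* (0.0125), against 0.0863 for the median gene. These 3 genes shared the small dip of *Nfe2l2* in WT replicate 3 and *Ltf*-KO replicate 3, *Ski* for example being at 71.2 and 68.8 TPM there and between 73.7 and 74.6 TPM in the other libraries. As these genes and *Thbd* were picked for likeness of profile, a shared order of libraries is no separate result.

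Around the members, 131 further genes of the pathway were grouped in 10 lists, and 122 of them were tested. In limma 0 of the 122 passed an adjusted p under 0.05 (lowest adjusted p = 0.999), and at an unadjusted p under 0.05 there were 2 lower in *Ltf*-KO and 0 higher, a share of 1.64% against 3.78% of all genes tested. The genotypes did not overlap in 5 of them (4.10%, against 8.46% of all genes tested), *Mgst3*, *Sesn1*, *Nnt*, *Vdac2* and *Abcb6*, each lower in *Ltf*-KO. The 2 genes at an unadjusted p under 0.05 were *Vdac2* and *Abcb6*. *Vdac2*, a channel of the outer mitochondrial membrane, was at 254.7, 257.8 and 254.0 TPM in WT and at 239.4, 237.8 and 242.0 TPM in *Ltf*-KO. *Abcb6*, a porphyrin transporter, was at 12.5, 12.8 and 14.3 TPM in WT and at 10.4, 10.7 and 11.9 TPM in *Ltf*-KO. Each *Ltf*-KO library lay below each WT library in both genes. They differed by a log2 fold change of -0.091 ± 0.028 (SE) for *Vdac2* and -0.24 ± 0.078 (SE) for *Abcb6*, each with an adjusted p of 0.999 in limma. *Vdac2* no longer passed an unadjusted p under 0.05 without the variance trend or with the replicate number as a block, at the same log2 fold change. *Abcb6* no longer passed without WT replicate 3 (-0.19), without *Ltf*-KO replicate 1 (-0.20) or without *Ltf*-KO replicate 2 (-0.22). Values after ± beside a log2 fold change are SE in the lists that follow.

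Of the regulators and partners of Nrf2, 11 were tested, 4 with a log2 fold change below 0 and 7 above, with a median of 0.024. The autophagy receptor *Sqstm1*, which can pull Keap1 away from Nrf2, was the most abundant at 495.3 ± 43.7 TPM in WT and 484.7 ± 61.5 TPM in *Ltf*-KO (SD, n = 3 each). Its highest libraries were WT replicate 3 at 545.8 TPM and *Ltf*-KO replicate 2 at 544.3 TPM, and the lowest was *Ltf*-KO replicate 3 at 421.4 TPM. The lowest p in this list belonged to *Pgam5*, a mitochondrial phosphatase that binds Keap1, with a log2 fold change of 0.096 ± 0.050, and *Cul3*, the scaffold of the ligase, with -0.097 ± 0.091. *Cul3* went to -0.0029 without *Ltf*-KO replicate 2, and to -0.19 without *Ltf*-KO replicate 1, where it passed an unadjusted p under 0.05 in limma (adjusted p = 1).

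Genes of glutathione synthesis and transfer numbered 20, with 13 below 0, 7 above and a median of -0.015. *Gstp1*, a cytosolic glutathione transferase, was the most abundant at 578.4 ± 47.3 TPM in WT and 585.1 ± 11.0 TPM in *Ltf*-KO (SD, n = 3 each). The lowest p were those of *Mgst3*, a microsomal transferase, at -0.12 ± 0.058, and *Gpx3*, the secreted glutathione peroxidase, at -0.11 ± 0.066. *Gpx3* passed an unadjusted p under 0.05 in limma without *Ltf*-KO replicate 2 (-0.17, adjusted p = 0.98). Of the 16 thioredoxin and peroxiredoxin genes, 10 lay below 0 and 6 above, with a median of -0.0060. *Txn1* led at 645.4 ± 20.5 TPM in WT and 624.9 ± 38.7 TPM in *Ltf*-KO. The stress protein *Sesn1* had a log2 fold change of -0.20 ± 0.094, which passed an unadjusted p under 0.05 without the variance trend (adjusted p = 0.999 in limma), and *Prdx3*, the mitochondrial peroxiredoxin, -0.045 ± 0.035.

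The 4 tested genes of superoxide dismutases and catalase had a median of 0.032, 1 below 0 and 3 above. *Sod1* was at 703.8 ± 13.7 TPM in WT and 700.7 ± 17.2 TPM in *Ltf*-KO, its copper chaperone *Ccs* had a log2 fold change of 0.088 ± 0.062, and catalase *Cat* had 0.056 ± 0.061. NADPH, the electron source of both the glutathione and the thioredoxin system, was represented by 9 tested genes of its supply and of the pentose phosphate pathway, 4 below 0 and 5 above, with a median of 0.0085 that became -0.0017 with median-of-ratios scaling and -0.0022 with quantile normalization. *Taldo1*, of the branch of that pathway that does not itself make NADPH, was the most abundant at 196.1 ± 11.2 TPM in WT and 192.3 ± 8.45 TPM in *Ltf*-KO. The mitochondrial transhydrogenase *Nnt* had a log2 fold change of -0.085 ± 0.044 and the isocitrate dehydrogenase *Idh1* 0.089 ± 0.098.

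Heme and iron storage, the branch nearest to *Hmox1*, had 12 tested genes, 5 below 0 and 7 above, with a median of 0.010 that became -0.0036 with quantile normalization. The ferritin light chain *Ftl1* was the most abundant gene of any list, at 5053, 4693 and 5512 TPM in WT and 4913, 5606 and 4361 TPM in *Ltf*-KO. The ferritin heavy chain *Fth1*, named after its values were seen, was at 2079, 2016 and 2381 TPM in WT and at 2159, 2445 and 1966 TPM in *Ltf*-KO. Both chains were highest in *Ltf*-KO replicate 2, next in WT replicate 3 and lowest in *Ltf*-KO replicate 3, the order of libraries seen in *Hmox1*. Their log2 fold changes were -0.041 ± 0.099 for *Ftl1* and 0.019 ± 0.094 for *Fth1*, or -0.0028 and 0.0073 with quantile normalization. The sign of *Ftl1* turned when replicate 3 of either genotype was left out (0.019 for WT, 0.048 for *Ltf*-KO). That of *Fth1* turned on leaving out WT replicate 1 (-0.0066), WT replicate 2 (-0.029) or *Ltf*-KO replicate 2 (-0.064). *Hmox2* had 0.073 ± 0.047 and *Pcbp2*, an iron chaperone, 0.033 ± 0.041.

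Of the 14 tested genes of lipid peroxidation and ferroptosis, 5 lay below 0 and 9 above, with a median of 0.018, *Vdac2* being the most abundant and the lone gene at an unadjusted p under 0.05. *Aifm2*, which encodes the ferroptosis suppressor FSP1, was at 8.05 ± 0.770 TPM in WT and 7.09 ± 0.410 TPM in *Ltf*-KO (log2 fold change -0.16 ± 0.087). The 16 selenoprotein genes and genes of their synthesis had a median of -0.011, with 9 below 0 and 7 above. *Selenof* was the most abundant, with -0.025 ± 0.032, and the lowest p belonged to *Selenos*, with 0.093 ± 0.060, and *Selenon*, with -0.075 ± 0.061.

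The 10 other Nrf2 targets that were tested had a median of -0.017, 6 below 0 and 4 above, *Abcb6* being the one at an unadjusted p under 0.05. *Akr1b8*, an aldo-keto reductase, was the most abundant at 154.0 TPM in WT and 156.4 TPM in *Ltf*-KO on average (log2 fold change 0.021 ± 0.041), and the glutathione transferase *Gsta2* had 0.23 ± 0.20 at a mean level of 1.02 TPM in WT, which became 0.40 with a pseudocount of 0.1. The list of Atf4, the factor of the amino acid and unfolded protein responses that also acts on *Slc7a11*, and its targets numbered 12, with 3 below 0, 9 above and a median of 0.028. *Phgdh* of serine synthesis was the most abundant at 267.8 TPM in WT and 268.9 TPM in *Ltf*-KO on average (0.0056 ± 0.043). The amino acid transporter *Slc7a5* had 0.070 ± 0.045 and *Ddit3*, a stress transcription factor, -0.24 ± 0.18. The value of *Ddit3* rested on *Ltf*-KO replicate 3, the lowest library at 11.8 TPM, and was -0.025 without it and -0.38 without *Ltf*-KO replicate 1.

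**Figure D4:**
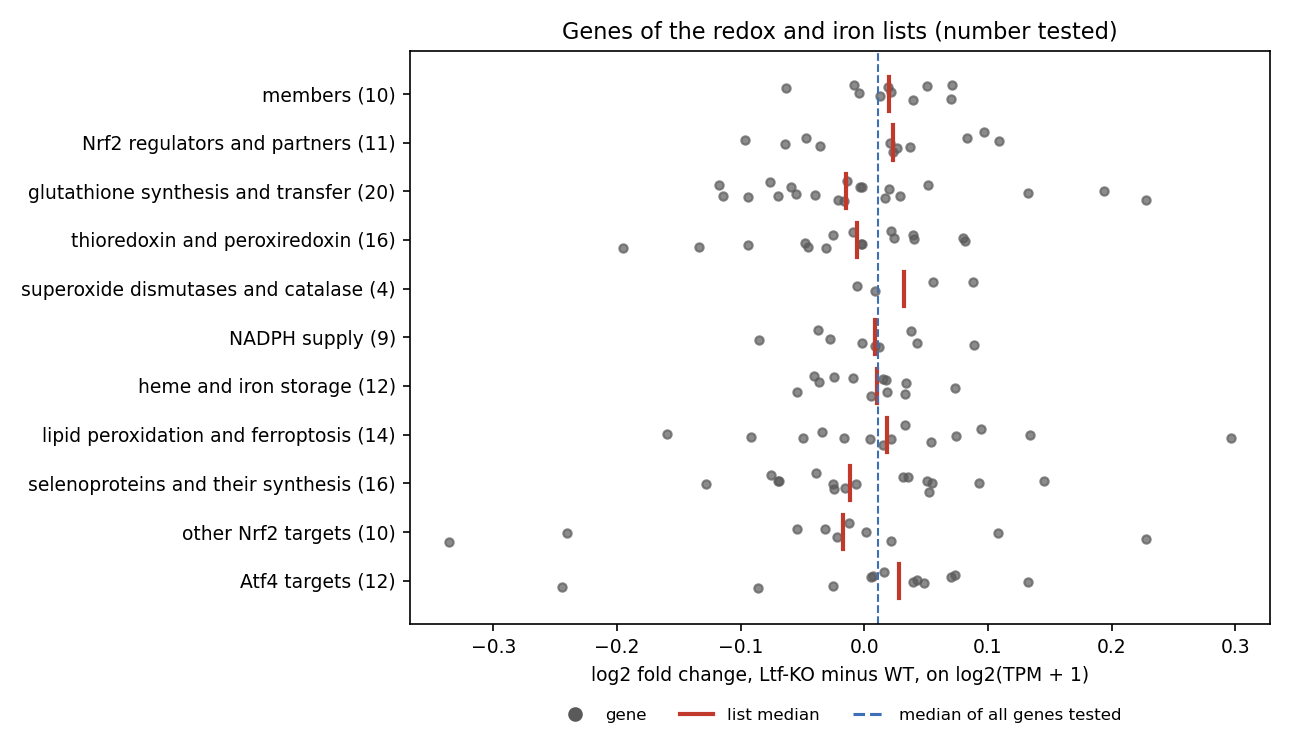
Log2 fold change, *Ltf*-KO minus WT on log2(TPM + 1) (x axis), of each tested gene (grey points) of the members and of the 10 pathway lists, with the number tested in parentheses, the median of each list as a red bar and the median of all genes tested as a blue dashed line. List medians lie between -0.017 and 0.032, on both sides of the 0.011 of all genes tested.

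Markers of the labelled cells and of cells that a sort could leave behind were summed in each library. The 8 myogenic markers, *Myod1* the most abundant and none with a mean below 1 TPM, summed to 1927, 1942 and 1884 TPM in WT and to 1916, 1923 and 1967 TPM in *Ltf*-KO, and the genotypes overlapped. Without *Myod1* they summed to 1111, 1194 and 1114 TPM in WT and to 1142, 1111 and 1215 TPM in *Ltf*-KO. *Des*, *Itga7*, *Cdh15* and *Vcam1* were highest in *Ltf*-KO replicate 3, while *Pax7*, *Myf5* and *Cd34* were lowest there. Endothelial and fibro-adipogenic cells carry Sca1, which the sort selected against. The 6 endothelial markers, led by *Cdh5* and with *Tek* and *Cldn5* below 1 TPM in each library, summed to 7.66, 5.68 and 15.0 TPM in WT and to 12.1, 13.5 and 5.83 TPM in *Ltf*-KO. They were high in WT replicate 3 and *Ltf*-KO replicate 2, as *Hmox1* was, and also in *Ltf*-KO replicate 1, where *Hmox1* was near its mean. The 8 fibroblast and fibro-adipogenic markers, led by *Col3a1* and with *Lum*, *Dpt* and *Pi16* below 1 TPM, summed to 102.9, 108.4 and 102.9 TPM in WT and to 133.8, 113.8 and 102.3 TPM in *Ltf*-KO. Without *Col3a1* they summed to 8.31, 11.8 and 14.9 TPM in WT and to 16.2, 20.5 and 12.4 TPM in *Ltf*-KO, with *Ltf*-KO replicate 2 as the highest. The 5 tested markers of this list had log2 fold changes above 0, with a median of 0.19, and overlapped between genotypes. Of the 4 tested endothelial markers, 3 lay above 0 and 1 below, with a median of 0.10. The part of these cells in the library pattern of the members was not tested.

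Macrophages are cells rich in *Hmox1* and ferritin that the CD11b- gate named in the paper should remove. The listed antibodies included CD45 but not CD11b. Of their 10 markers, *Adgre1*, *Csf1r*, *Ptprc*, *Itgam*, *C1qa*, *C1qb* and *Cd163* were below 1 TPM in each library. The sum, led by *Cd68*, was 12.7, 6.55 and 4.71 TPM in WT and 5.20, 4.74 and 3.69 TPM in *Ltf*-KO. It was highest in WT replicate 1, through *Lyz2* at 7.22 TPM, while *Cd68* was highest in WT replicate 3 and lowest in *Ltf*-KO replicate 3. These 2 were the tested markers of the list, and both had log2 fold changes below 0, with a median of -0.51. The part of macrophages in the pattern of *Hmox1* was not tested either. The 6 smooth muscle and pericyte markers, led by *Acta2* and with *Myh11*, *Rgs5* and *Kcnj8* below 1 TPM, summed to 509.2, 532.1 and 449.1 TPM in WT and to 579.7, 499.8 and 629.6 TPM in *Ltf*-KO, with *Ltf*-KO replicate 3 the highest. Without *Acta2* they summed to 36.2, 39.0 and 40.4 TPM in WT and to 44.3, 49.6 and 36.6 TPM in *Ltf*-KO, and *Ltf*-KO replicate 2 was then the highest, as for *Hmox1*. The 3 tested markers of this list had log2 fold changes above 0, with a median of 0.19. Among them *Pdgfrb* was at 3.73, 3.89 and 4.71 TPM in WT and at 6.95, 7.51 and 4.8 TPM in *Ltf*-KO. Its genotypes did not overlap, with a log2 fold change of 0.52 ± 0.16 (SE) that passed an unadjusted p under 0.05 in limma (adjusted p = 0.999). It no longer passed without WT replicate 1 (0.47), WT replicate 2 (0.49), *Ltf*-KO replicate 1 (0.46) or *Ltf*-KO replicate 2 (0.42). The genotypes also did not overlap in *Rgs5*, at 0.12 to 0.18 TPM in WT and 0.23 to 0.46 TPM in *Ltf*-KO, and in *Cd68*, at 3.56 to 3.98 TPM in WT and 3.12 to 3.52 TPM in *Ltf*-KO. All other markers of these lists overlapped, and of all genes tested 8.46% did not. No marker gene of these lists was listed at 0 in all 6 libraries.

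**Figure D5:**
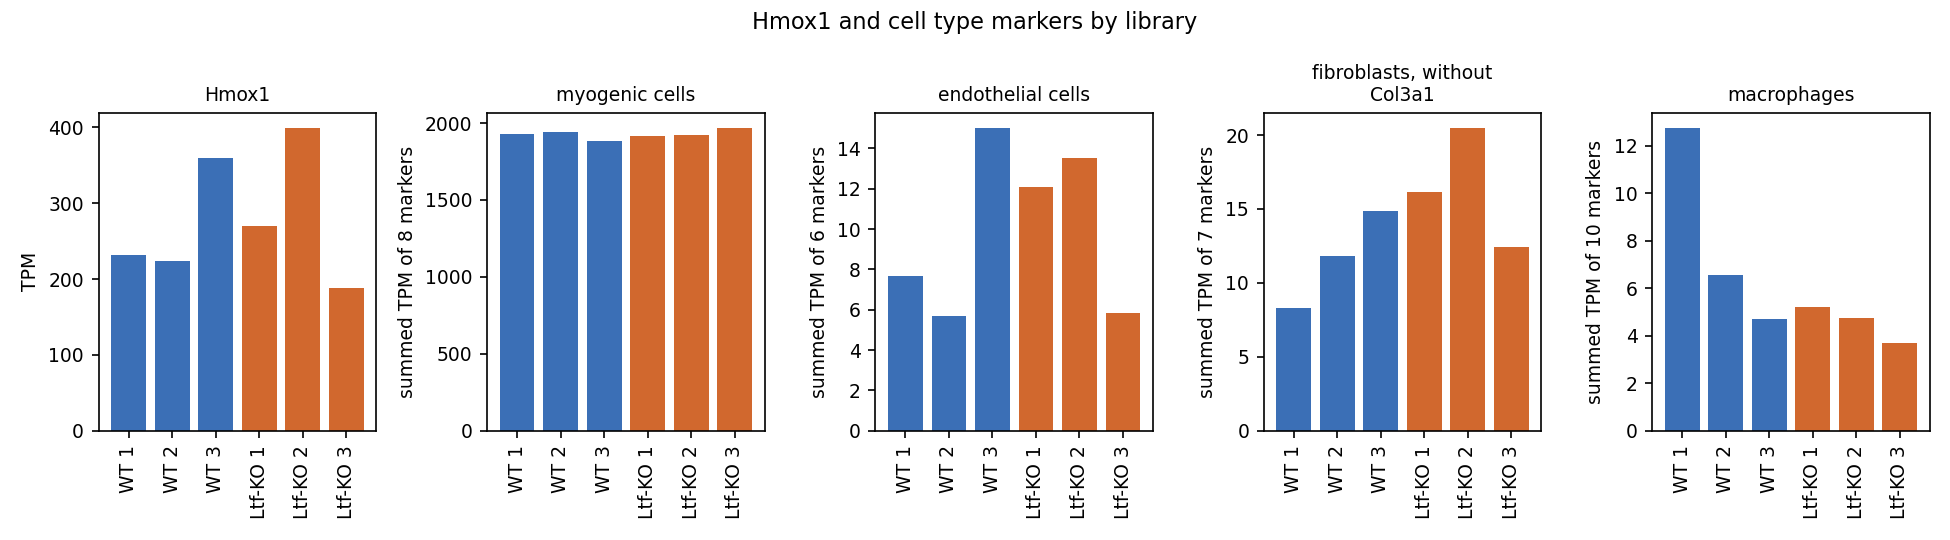
*Hmox1* in TPM and the summed TPM of marker genes of myogenic, endothelial, fibroblast (without *Col3a1*) and macrophage cells (y axes, from 0) in the 3 WT (blue) and 3 *Ltf*-KO (orange) libraries, 1 bar per library. *Hmox1* and the endothelial sum are both high in WT replicate 3 (360.1 and 15.0 TPM) and *Ltf*-KO replicate 2 (399.0 and 13.5 TPM), but in *Ltf*-KO replicate 1 the endothelial sum is high too (12.1 TPM) and *Hmox1* is not (270.4 TPM).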

How the data were processed

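RNA of the 6 libraries was processed by Gene Denovo with its standard protocol. The submitters' processing notes name the build GRCm39, and the aligner, counter and annotation were not given in the sources used here. The authors deposited 1 table whose unit, TPM, was inferred from values that sum to nearly the same total in each library. Libraries were grouped by their labels. Here log2(TPM + 1) was fitted in limma 3.58.1 (R 4.3.3) with lmFit and eBayes with a variance trend, keeping genes whose mean reached 1 TPM. Tests were two-sided, with Benjamini-Hochberg adjustment over all genes and a threshold of 0.05, and the fit was tested on simulated data. The members and lists were chosen with earlier results of these data known. Besides the members, the text names in each pathway list the most abundant gene, the 2 lowest p and any gene at an unadjusted p under 0.05. Outside this rule it names genes set beside a member, *Fth1* and genes whose genotypes did not overlap. Under other observations it also names further genes, such as *Alox5* and *Alox15*. Alternatives were a pseudocount of 0.1, no filter, a mean of at least 10 TPM, median-of-ratios scaling, quantile normalization, no variance trend, the replicate number as a block and each library left out. Promoter windows came from RefSeq on GRCm38.p6, a different build, and were matched by gene name. The values of 1 list of marker genes are not reported here.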

Additional observations from a re-analysis of the deposited data

How the results depend on the processing

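Under 13 alternatives 0 members passed an adjusted p under 0.05 in limma, and the lowest adjusted p of a member was 0.946. Genes at an unadjusted p under 0.05 numbered 890 with no filter and 281 at a mean of at least 10 TPM (411 and 137 lower in *Ltf*-KO), against 490 and 230; fewer or more genes entered. The number at an adjusted p under 0.05 ranged from 0 to 6 with a library left out, and members at an unadjusted p under 0.05 from 0 to 1. Quantile normalization turned *Nqo1* to -0.0027 and *Sod1* to 0.025, and median-of-ratios scaling turned *Phgdh* to -0.0048; the cause was not tested. Without a change of sign, median-of-ratios scaling and quantile normalization moved *Akr1b8* from 0.021 to 0.011 and 0.013, *Fth1* from 0.019 to 0.0082 and 0.0073, *Gstp1* from 0.020 to 0.0093 and 0.013, *Srxn1* from 0.019 to 0.0087 and 0.0094 and the median of the members from 0.020 to 0.0098 and 0.012. The first also moved *Nfe2l2* to -0.019, *Gclm* to 0.011, *Txnrd1* to -0.015, *Nqo1* to 0.0027 and *Sod1* to -0.017, and the second *Ftl1* to -0.0028 and *Phgdh* to 0.0025. List medians under the 2 were 0.014 and 0.0043 for Nrf2 regulators, -0.025 and -0.033 for glutathione, -0.016 and -0.017 for thioredoxin, 0.0084 and 0.0079 for ferroptosis, -0.022 and -0.018 for selenoproteins, -0.027 and -0.032 for other Nrf2 targets and 0.018 and 0.018 for Atf4 and its targets, and 0.00027 for heme and iron storage with the first. With no filter the medians became 0.0054 for heme and iron storage, 0.010 for ferroptosis and 0.0084 for superoxide dismutases and catalase, and at a mean of at least 10 TPM 0.016 for Atf4 and its targets; more or fewer genes of the lists entered. A pseudocount of 0.1 moved *Gsta2* to 0.40. *Slc7a11* was not tested at a mean of at least 10 TPM. The replicate block gave 380 genes at an unadjusted p under 0.05 and 0 members, and changed no call at an adjusted p. Whether the WT and *Ltf*-KO libraries that share a number were prepared together was not given. The correlations of deviations were small, at -0.0413, -0.0582 and -0.0875 for replicates 1, 2 and 3. With means taken over 3 libraries each, these values cannot decide it. With each library left out, log2 fold changes ranged from -0.036 to 0.032 for *Nfe2l2*, -0.23 to 0.31 for *Hmox1*, -0.089 to 0.096 for *Nqo1*, -0.13 to 0.21 for *Gclm*, -0.082 to 0.081 for *Txnrd1*, -0.099 to 0.17 for *Srxn1* and -0.094 to 0.17 for *Slc7a11*. The same ranges were -0.0021 to 0.049 for *Akr1b8*, -0.064 to 0.094 for *Fth1*, -0.13 to 0.048 for *Ftl1*, -0.039 to 0.079 for *Gstp1*, -0.017 to 0.17 for *Idh1*, -0.0017 to 0.065 for *Pcbp2*, -0.032 to 0.027 for *Phgdh*, -0.025 to 0.0090 for *Sod1*, -0.12 to 0.061 for *Sqstm1*, -0.070 to 0.012 for *Taldo1* and -0.077 to 0.0044 for *Txn1*. Values that kept their sign but moved by over 1.5 times ranged from 0.0055 to 0.15 for *Gclc*, 0.021 to 0.080 for *Gpx4*, -0.097 to -0.00051 for *Keap1*, -0.21 to -0.092 for *Aifm2*, 0.022 to 0.10 for *Cat*, 0.030 to 0.13 for *Ccs*, -0.19 to -0.0029 for *Cul3*, -0.38 to -0.025 for *Ddit3*, -0.17 to -0.059 for *Gpx3*, 0.10 to 0.35 for *Gsta2*, 0.046 to 0.094 for *Hmox2*, -0.15 to -0.070 for *Mgst3*, -0.046 to -0.012 for *Selenof*, -0.11 to -0.036 for *Selenon*, 0.038 to 0.13 for *Selenos* and 0.036 to 0.10 for *Slc7a5*. The median of the members ranged from -0.091 to 0.12, and list medians from -0.0058 to 0.051 for Nrf2 regulators, -0.041 to 0.024 for glutathione, -0.039 to 0.013 for thioredoxin, 0.013 to 0.057 for superoxide dismutases and catalase, -0.018 to 0.028 for NADPH, -0.0071 to 0.027 for heme and iron storage, -0.0072 to 0.039 for ferroptosis, -0.026 to 0.017 for selenoproteins, -0.064 to 0.055 for other Nrf2 targets and -0.019 to 0.063 for Atf4 targets. TPM keeps no depth, so its limit on low genes such as *Slc7a11* is unknown.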

Other observations

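The highest and the lowest library of *Hmox1*, a pair chosen after the values were seen, were also found together in genes outside the members. Of the 122 tested genes of the pathway lists, 35 (28.7%) were highest in *Ltf*-KO replicate 2, 36 (29.5%) were lowest in *Ltf*-KO replicate 3 and 13 (10.7%) were both, against 21.3%, 18.7% and 6.16% of all genes tested. The 13 were *Cbr3*, *Chac1*, *Ddit4*, *Fth1*, *Ftl1*, *Gstm2*, *Gsto1*, *Mgst2*, *Prdx5*, *Prdx6*, *Scd1*, *Sesn2* and *Tkt*, and were named after their values were seen. WT replicate 3, the second of *Hmox1*, was also second in *Cbr3*, *Ddit4*, *Fth1*, *Ftl1* and *Gsto1*, and not in the others. *Gsto1*, a glutathione transferase of the omega class, was at 233.1, 238.7 and 270.5 TPM in WT and at 233.2, 273.8 and 201.0 TPM in *Ltf*-KO. *Ddit4*, an inhibitor of mTORC1 induced by stress, was at 28.0, 29.5 and 36.5 TPM in WT and at 33.1, 38.5 and 24.4 TPM in *Ltf*-KO. *Chac1*, which breaks down glutathione, was at 3.69, 3.54 and 4.42 TPM in WT and at 4.48, 6.34 and 2.78 TPM in *Ltf*-KO. That the *Ltf*-KO values enclosed the WT values follows from how the 13 genes were picked and is no separate result. *Atf4* itself kept between 246.0 and 261.5 TPM in the 6 libraries, and the mean of *Chac1* was 3.88 ± 0.471 TPM in WT and 4.53 ± 1.78 TPM in *Ltf*-KO (SD, n = 3 each). *Alox5*, an arachidonate lipoxygenase, was at 66.5 to 78.9 TPM, highest in *Ltf*-KO replicate 2, while *Alox15* was at 0.03 TPM or less.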
